A study of Homo sapiens with 8 samples.

Results

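Semaphorins, plexins, neuropilins, ephrins and Eph receptors were examined in 8 RNA-seq libraries of Nthy-ORI, an immortalised line of normal human thyroid epithelial cells. Members were all genes whose symbol is that of a semaphorin of classes 3 to 7, a plexin, NRP1 or NRP2, an A or B ephrin, or an EphA or EphB receptor. The deposited tables held 53 such genes among 56832, namely 20 semaphorins, 11 plexins and neuropilins, 8 ephrins and 14 Eph receptors. All cells were kept for 24 h in phenol-red-free medium with charcoal-stripped serum, which removes thyroid hormone. They then received 10 nM T3 (triiodothyronine, the active thyroid hormone) or its NaOH vehicle, and RNA was taken after 6 h or 24 h. Each of the 4 groups had 2 libraries. All libraries came from 1 cell line. The labels do not say whether a group's 2 libraries stem from separate cultures, and the p-values reflect only how far these libraries vary, which may be technical.

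These proteins pass positional signals between cells. Semaphorins are secreted (class 3) or held in the membrane (classes 4 to 7) and act through plexins, whose cytoplasmic domain regulates small GTPases. Most class 3 semaphorins need a neuropilin as co-receptor, and neuropilins also bind VEGF. Ephrins are membrane-bound ligands of Eph receptor tyrosine kinases. A ephrins carry a lipid anchor and mainly bind EphA receptors, B ephrins span the membrane and mainly bind EphB receptors, and signals can run into both the receptor-bearing and the ligand-bearing cell. In epithelia both systems act on cell contacts, cell spreading and migration.

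The libraries held between 2517983 and 8201606 counts in genes, of which the members took 3405 to 7530, and 40 to 47 of the 53 members had a count in any one library. A floor of 3 counts in a library corresponds to 0.366 to 1.19 CPM (counts per 1e+06 counts in genes, with edgeR's TMM scaling), and absence cannot be told from expression below it. Expression across all genes correlated at Pearson r of 0.958 to 0.986 between libraries of the same time and at 0.687 to 0.769 between times. KLF9, a direct T3 target used to check the labels, was at 0.904 and 0.818 CPM with vehicle and 13.4 and 14.1 CPM with T3 at 6 h. At 24 h it was at 20.8 and 31.4 CPM in the libraries labelled vehicle and at 2.79 and 3.35 CPM in those labelled T3, which goes against the labels, and the 24 h groups are named as labelled throughout. The thyroid transcription factors PAX8, FOXE1 and HHEX were expressed, whereas NKX2-1, also a thyroid transcription factor, was at 0 to 0.724 CPM. TG, TSHR and DUOX2, which help define the hormone-producing thyrocyte, were at or near 0. Of markers of other cell types, 10 endothelial genes summed to 0.362 to 5.38 CPM and 10 immune genes to 1.81 to 6.33 CPM per library. The 10 neural and glial genes summed to 9.04 to 20.1 CPM, with SNAP25 at 4.97 to 19.7 CPM. The 8 thyroid C-cell genes summed to 1.21 to 10.6 CPM. CDH5, TIE1, EMCN, CD3E, CD52 and AIF1 were at 0 in all 8 libraries. TYROBP and LST1, the 2 immune genes that could be tested, were higher at 24 h with both treatments, at up to 3.01 CPM.

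The starts of 4 genes are shown because the results turn on them. NRP2 and PLXNC1 were near 0 at 6 h and expressed at 24 h, SEMA3G was the reverse, and SEMA3C was higher in the libraries labelled T3 at both times. Sequences are the RefSeq windows upstream of a start on GRCh38.p14, 5′ to 3′ on the gene's strand and without bases in annotated exons, and capitals mark GC boxes (GGGCGG or its reverse complement).
NRP2, chr2:205682251-205682499, plus strand: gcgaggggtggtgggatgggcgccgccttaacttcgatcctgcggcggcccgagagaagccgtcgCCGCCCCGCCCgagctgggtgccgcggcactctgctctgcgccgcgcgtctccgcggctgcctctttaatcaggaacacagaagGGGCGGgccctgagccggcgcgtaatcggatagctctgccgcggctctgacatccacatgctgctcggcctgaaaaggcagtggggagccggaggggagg
PLXNC1, chr12:94148327-94148576, plus strand: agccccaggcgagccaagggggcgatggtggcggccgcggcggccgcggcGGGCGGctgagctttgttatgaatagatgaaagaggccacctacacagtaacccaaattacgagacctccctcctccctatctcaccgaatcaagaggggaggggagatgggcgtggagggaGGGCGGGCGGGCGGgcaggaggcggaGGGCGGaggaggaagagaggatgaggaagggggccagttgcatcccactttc
SEMA3C, chr7:80922390-80922639, minus strand: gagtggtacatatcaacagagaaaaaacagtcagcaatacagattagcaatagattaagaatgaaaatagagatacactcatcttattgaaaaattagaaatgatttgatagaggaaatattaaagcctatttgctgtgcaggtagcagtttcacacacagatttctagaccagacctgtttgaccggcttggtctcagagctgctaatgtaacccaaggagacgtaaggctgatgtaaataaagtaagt
SEMA3G, chr3:52445104-52445353, minus strand: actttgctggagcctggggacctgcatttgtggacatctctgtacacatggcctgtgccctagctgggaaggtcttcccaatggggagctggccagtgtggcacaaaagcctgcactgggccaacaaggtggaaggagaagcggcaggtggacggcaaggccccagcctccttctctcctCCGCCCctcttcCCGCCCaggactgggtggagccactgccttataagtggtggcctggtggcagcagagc
The PLXNC1 stretch held 5 GC boxes, that of NRP2 3, that of SEMA3G 2 and that of SEMA3C 0. SEMA3C has another RefSeq start, whose 300-base window is not shown and held 3 GC boxes and 46 CpG at 75.7% GC. NRP2 had 29 CpG in 249 bases at 69.9% GC, whereas this SEMA3C start had 2 CpG in 250 bases at 36.4% GC. None of the 4 held AGGTCA, the half-site that thyroid hormone receptors bind, on either strand. Promoter windows of 300 bases were found for 47 of the 53 members, 74 windows in all. A GC box stood in 74.3% of these windows and in 45% of all 35116 promoter windows, and AGGTCA in 9.46% and 13.8%. AGGTCA repeated in the same direction after any 4 bases, a thyroid hormone response element, was in 0 member windows and in 0.0199% of all windows. A match describes letters in a window and is not a binding site.

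Members were compared with each other on a per-length scale, TPM (counts per exon length, scaled to 1e+06 in each library). SEMA3C was the most abundant semaphorin with 85.2 TPM as the mean of the 4 groups, followed by SEMA3B with 32.7 and SEMA3F with 18.4 TPM, all secreted. PLXNB2, a receptor of class 4 semaphorins, led the plexins with 88.1 TPM, ahead of PLXND1 with 27.3 and PLXNA1 with 23.6 TPM. EFNA1 led the ephrins with 114 TPM, ahead of EFNA5 with 26.8 and EFNA4 with 16.8 TPM. EPHA2, the main epithelial EphA receptor, led the Eph receptors with 68.6 TPM, ahead of EPHB4 with 34.1 and EPHB2 with 9.03 TPM. EPHA2 made up 95.9% to 98.0% of all EphA TPM in every group, so the EphA side was nearly a single gene. The ephrin side was not, as EFNA1 held 71.9% and 78.0% of ephrin-A TPM in the 6 h groups but 49.2% and 47.2% in the 24 h groups, where EFNA5 held 31.1% and 41.0%. Among class 3 semaphorins the share of SEMA3C was 26.7% with vehicle and 47.0% with T3 at 6 h, and 82.1% and 87.6% at 24 h.

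**Figure D1:**
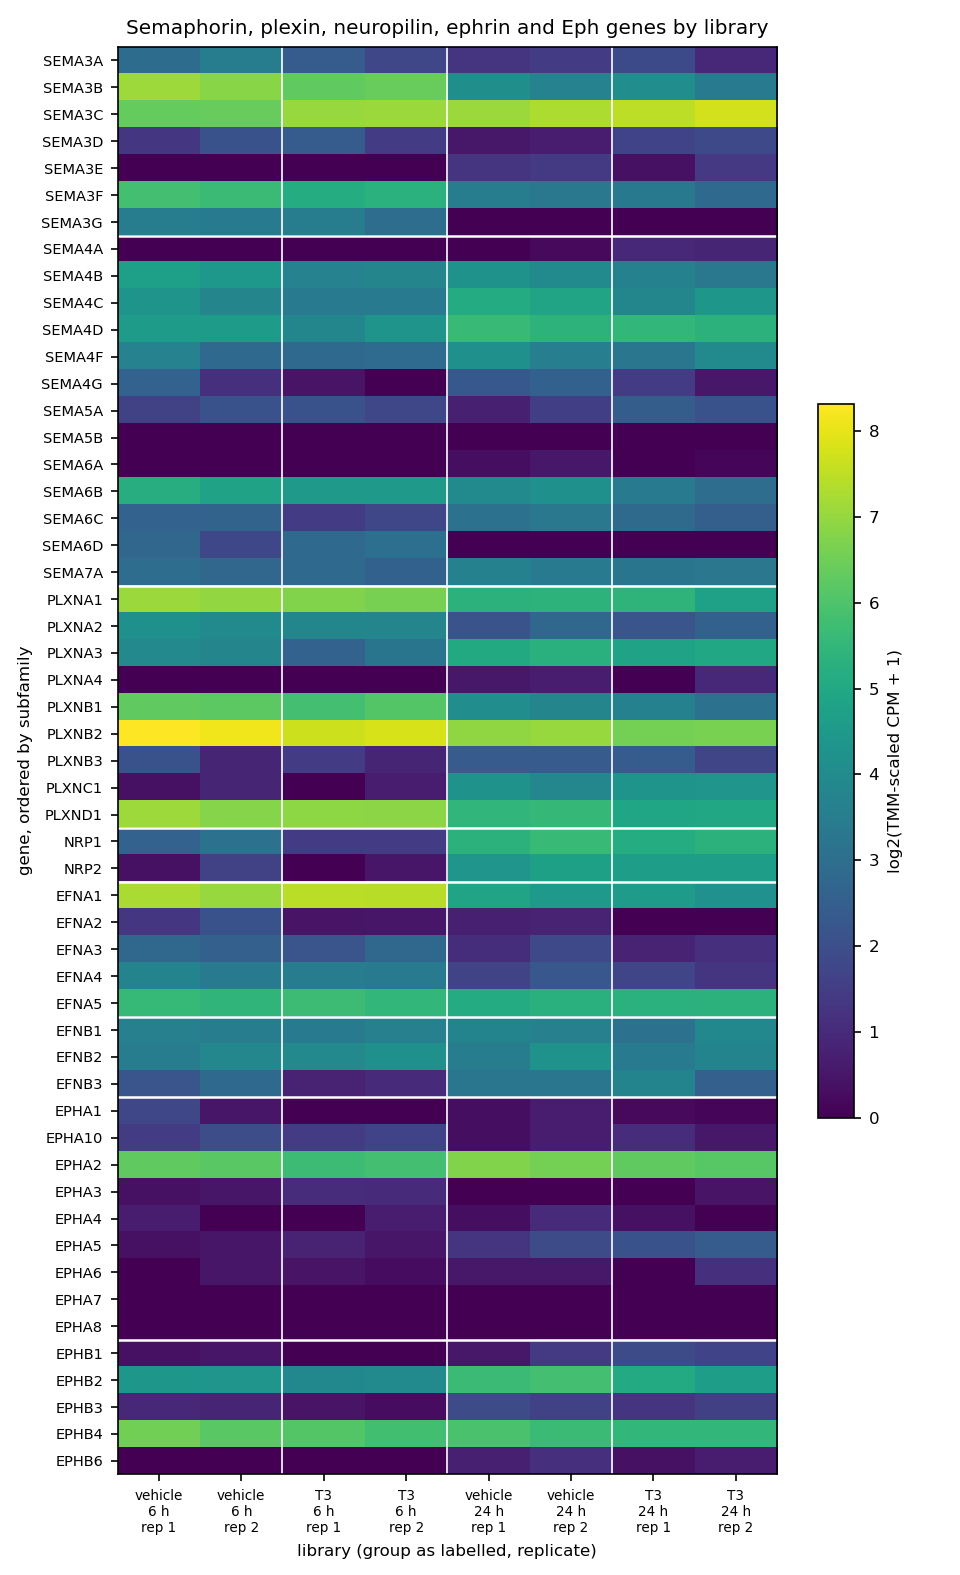
Expression of the 53 members (vertical, by subfamily) in the 8 libraries (horizontal), as log2 of TMM-scaled CPM plus 1. The 2 libraries of a group look alike, and the columns of the 6 h libraries differ from those of the 24 h libraries, for example in NRP1, NRP2, PLXNC1, SEMA3G and SEMA6D.

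Of the 53 members, 38 passed the filter on low counts (16 semaphorins, 10 plexins and neuropilins, 7 ephrins and 5 Eph receptors). The other 15 were not tested. A gene near 0 in some groups could pass this filter only through the groups where it was high. This holds for NRP2, PLXNC1, EPHB1, SEMA3G and SEMA6D, so a large difference between the times was in part a condition of their being tested. EPHA7, EPHA8 and SEMA5B had 0 counts in all 8 libraries. EFNA2, EPHA1, EPHA3, EPHA4, EPHA6, EPHA10, EPHB3, EPHB6, PLXNA4, SEMA3E, SEMA4A and SEMA6A stayed at or below 17 counts in every library, and the highest of these levels was 3.27 CPM (EFNA2, vehicle at 6 h). SEMA3E, SEMA4A, SEMA6A, PLXNA4 and EPHB6 had 0 counts in all 4 libraries of 6 h and some counts at 24 h. SEMA3E, a secreted ligand of plexin D1, had 6 and 11 counts in the vehicle and 2 and 14 in the T3 libraries at 24 h. Most of the EphA family was therefore at or near the floor in these cells.

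The first comparison asked which members differed between T3 and vehicle after 6 h. Secreted SEMA3C rose and SEMA3B fell, the membrane ligands SEMA4G and EFNB3 fell, and so did the receptors NRP1 and PLXNB2. Differences are given on the log2 scale with the standard error (SE) from edgeR's quasi-likelihood test, and a gene passed at a Benjamini-Hochberg adjusted p under 0.05 over the 14611 genes tested. By this rule 6 of 38 members passed, where 7.64% of all genes tested did. 1 was higher (3.78% of all genes) and 5 were lower (3.86% of all genes). The median difference of the 38 was -0.45 against -0.02 over all genes, and 30 of the 38 values were negative where 51.6% of all genes were. In bulk RNA a smaller number of expressing cells and less RNA per cell cannot be told apart.

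Among the ligands, SEMA3C was at 80.8 and 82.7 CPM with vehicle and at 131 and 133 CPM with T3. The groups were far apart, and the rise was 0.70 (SE 0.14, edgeR adjusted p = 0.00798). SEMA3B, which binds neuropilins and is known as a candidate tumour suppressor, was at 137 and 113 CPM with vehicle and 76.4 and 82.5 CPM with T3, a difference of -0.65 (SE 0.19, edgeR adjusted p = 0.0441). EFNB3, a transmembrane ephrin, was at 3.62 and 6.14 CPM with vehicle and at 0.724 and 1.01 CPM with T3. This was a difference of -2.37 (SE 0.70, edgeR adjusted p = 0.0466), from 27 counts in all to 7. SEMA4G, a ligand of plexin B2, had 17 and 3 counts with vehicle and 1 and 0 with T3, which is 26.8-fold lower with a 95% interval of 4.29 to 1113 that covers counting error only (edgeR adjusted p = 0.0401). Its values rest mostly on 1 vehicle library, and without that library it did not pass. SEMA4B, another class 4 semaphorin, was at 25.02 and 20.5 CPM with vehicle and 11.9 and 12.7 CPM with T3 and did not pass (-0.89, edgeR adjusted p = 0.0537).

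Among the receptors, NRP1 was at 5.12 and 7.77 CPM with vehicle and at 1.81 CPM in both T3 libraries. The difference was -1.78 (SE 0.43, edgeR adjusted p = 0.0184). PLXNB2 was at 319 and 281 CPM with vehicle and at 206 and 223 CPM with T3, a difference of -0.48 (SE 0.12, edgeR adjusted p = 0.0224). All 10 tested plexins and neuropilins had a negative value, but the other 8 did not pass, among them PLXNA3 (-0.93, edgeR adjusted p = 0.0663). No Eph receptor passed. EPHA2 was at 76.6 and 71.6 CPM with vehicle and at 51.0 and 55.7 CPM with T3 (-0.47, edgeR adjusted p = 0.0644).

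Without vehicle replicate 1, or without either T3 library of 6 h, 0 of the 6 passed, and without vehicle replicate 2 there were 3 members past the threshold. When the 6 h libraries were fitted alone 15 passed (1 higher and 14 lower), and 23.7% of the 12234 genes tested did. Members were richer in GC (median 58.4%) than all genes with a value (48.9%), and with offsets for GC content and length only SEMA3C and NRP1 passed and the members' median was -0.17.

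**Figure D2:**
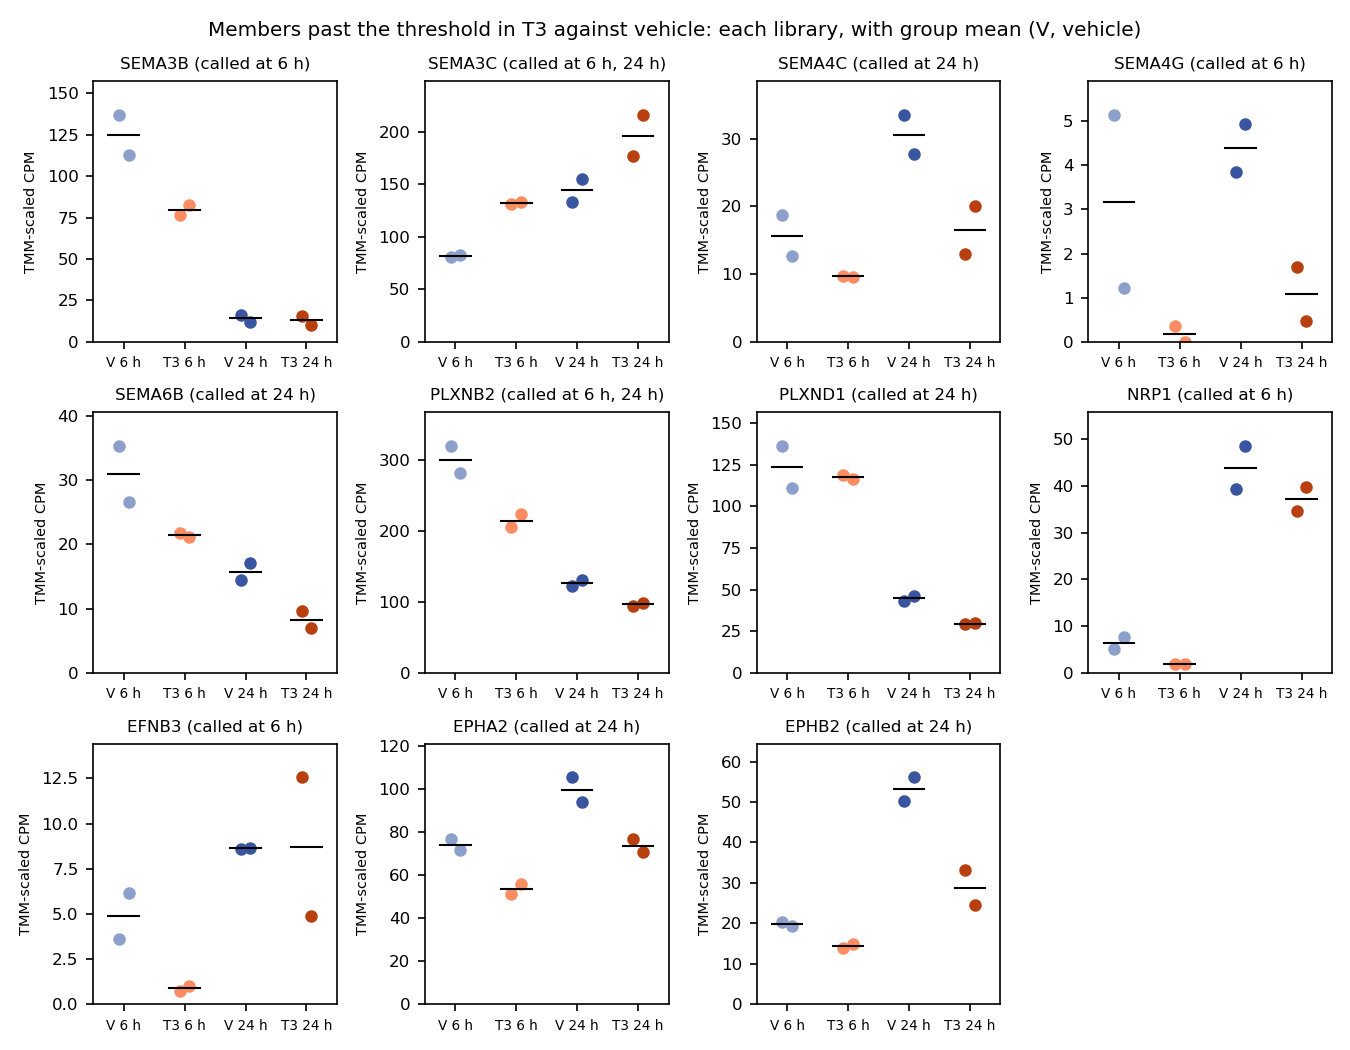
TMM-scaled CPM (vertical, 1 panel per gene) of the 11 members past the threshold between T3 and vehicle at 6 h or at 24 h as labelled, with a point per library and a bar at each group mean. SEMA3C is higher in the libraries labelled T3 than in those labelled vehicle at both times, and NRP1 falls from 5.12 and 7.77 to 1.81 CPM at 6 h but lies between 34.6 and 48.4 CPM in the 24 h libraries.

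The same comparison at 24 h, by the labels, gave 7 members past the threshold of 38 (13.3% of all genes passed), 1 higher (5.58% of all genes) and 6 lower (7.75% of all genes) in the libraries labelled T3. SEMA3C was again higher, and the receptors EPHA2, EPHB2, PLXNB2 and PLXND1 and the membrane semaphorins SEMA4C and SEMA6B were lower. The direction of each rests on labels that KLF9 went against. The median over members was -0.27 against -0.01 over all genes. Of the 38 values 27 were negative and 9 positive, where 50.9% of all genes were negative. SEMA3G and SEMA6D had 0 counts in all 24 h libraries and so showed no difference. With GC and length offsets 14 values were negative and 23 positive.

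SEMA3C was at 134 and 155 CPM in the libraries labelled vehicle and at 177 and 216 CPM in those labelled T3 (0.44, SE 0.13, edgeR adjusted p = 0.0340). Among other ligands SEMA4C, a ligand of plexin B2, was at 33.4 and 27.8 CPM in the libraries labelled vehicle and at 13.0 and 20.1 CPM in those labelled T3 (-0.87, SE 0.25, edgeR adjusted p = 0.0280). SEMA6B, a ligand of A plexins, was at 14.5 and 17.04 CPM against 9.61 and 6.94 CPM (-0.95, SE 0.25, edgeR adjusted p = 0.0221). The groups of these 3 ligands did not overlap, but with 2 libraries a group this also held for members that did not pass, such as SEMA4B. EPHB2, an EphB receptor, was at 50.2 and 56.1 CPM in the libraries labelled vehicle and at 33.2 and 24.4 CPM in those labelled T3 (-0.89, SE 0.19, edgeR adjusted p = 0.00636). EPHA2 was at 105 and 94.0 CPM against 76.6 and 70.6 CPM (-0.44, SE 0.14, edgeR adjusted p = 0.0413). PLXND1, through which SEMA3E acts without a neuropilin, was at 43.4 and 46.0 CPM against 29.1 and 29.7 CPM (-0.60, SE 0.15, edgeR adjusted p = 0.0149). PLXNB2 was at 123 and 131 CPM against 94.3 and 98.9 CPM (-0.39, SE 0.12, edgeR adjusted p = 0.0405). EPHB2 was the only one of the 7 that passed whichever library was left out. With GC and length offsets 0 of the 7 passed (1.04% of all genes did), the members' median became 0.09, and EPHA2 (0.08) and PLXNB2 (0.15) changed sign. With the 24 h libraries fitted alone, only EPHB2 passed.

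No member passed a test of whether the T3 difference at 24 h, as labelled, differed from that at 6 h (edgeR, 0 of 38, where 1.84% of all genes did, 0.849% higher and 0.992% lower). DESeq2 also gave 0, and EFNA1, EFNB3, NRP1 and PLXND1 were the 4 members at an unadjusted p under 0.05. EFNB3 passed when T3 replicate 2 of 24 h was left out (2.88, edgeR adjusted p = 0.0240). In that library EFNB3 was at 4.86 CPM, against 12.6 CPM in the other T3 library of 24 h.

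The 24 h libraries were then compared with the 6 h libraries of the same labelled treatment. Since KLF9 went against the 24 h labels, whether each comparison pairs the same treatment rests on those labels, and so do the values given as with vehicle or with T3 and any call that passed with one of them only. NRP1, NRP2 and PLXNC1 were many times higher at 24 h. The secreted ligands SEMA3B, SEMA3F and SEMA3G, the membrane ligands SEMA6D, EFNA1, EFNA3 and EFNA4, and 5 plexins of the A, B and D classes were lower. With vehicle 26 of 38 members passed (64.5% of all genes did), 10 higher (31.9%) and 16 lower (32.6%). With T3 28 of 38 passed (70.4% of all genes), 14 higher (35.1%) and 14 lower (35.2%). The members' medians were -0.10 and -0.12 against 0.03 and 0.02 over all genes. The share of members past the threshold in either direction, 68.4% with vehicle and 73.7% with T3, was near that of all genes. No member passed the test of a difference between the treatments' time differences, which is the same contrast as the difference of the T3 responses. With GC and length offsets 14 were higher and 13 lower with vehicle and 19 and 11 with T3, at medians of 0.29 and 0.50. The 2 time comparisons and the 2 T3 comparisons share libraries and are not independent.

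Time of treatment and anything else that differed between the 6 h and 24 h libraries cannot be told apart. The share of table reads assigned to genes was 12.9% to 17.1% at 6 h and 19.5% to 24.4% at 24 h. The summed level of 12 epithelial markers was 567 to 636 CPM at 6 h and 219 to 309 CPM at 24 h, and all 7 tested ones were lower at 24 h with either treatment. The sum of 12 mesenchymal markers was 1977 to 2861 CPM at 6 h, mostly VIM, and 9658.5 to 11598 CPM at 24 h, mostly FN1. FN1 was at 122 to 646 CPM at 6 h and 7486 to 9006 CPM at 24 h. VIM was lower at 24 h (1573 to 1931 CPM, then 922 to 1072 CPM), and PRRX1 was at 0 in all 24 h libraries. Of the 10 tested mesenchymal markers 5 were higher and 4 lower at 24 h with vehicle, and 6 and 3 with T3. The sum of 11 thyroid genes was 27.6 to 43.4 CPM at 6 h and 150 to 194 CPM at 24 h, where it was mostly PAX8. PAX8 was at 4.02 to 13.5 CPM at 6 h and 108 to 155 CPM at 24 h. FOXE1 rose less (6.84 to 14.1 CPM, then 16.9 to 24.96 CPM), and the HHEX ranges of the times overlapped. Of the 3 tested thyroid genes 2 were higher at 24 h with either treatment. The part of these shifts in the members' differences was not tested.

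Among the receptors, NRP1, NRP2 and PLXNC1 rose at 24 h with both treatments. NRP1 was at 5.12, 7.77, 1.81 and 1.81 CPM in the 6 h libraries and between 34.6 and 48.4 CPM in the 24 h libraries. Its difference was 2.80 with vehicle (SE 0.27, edgeR adjusted p = 9.23e-08) and 4.34 with T3 (SE 0.31, edgeR adjusted p = 1.85e-09). NRP2, which binds SEMA3F and SEMA3C, had 6 counts in the vehicle and 2 in the T3 libraries at 6 h and 257 and 358 counts at 24 h. It rose by 4.40 with vehicle (SE 0.49, edgeR adjusted p = 6.82e-07), and with T3 the ratio was 91.7 with a 95% counting interval of 25.2 to 760 (edgeR adjusted p = 3.27e-08). In TPM the neuropilin sum was 2.08 ± 0.81 with vehicle and 0.508 ± 0.053 with T3 at 6 h, and 21.7 ± 0.25 and 22.6 ± 1.19 at 24 h (SD, n = 2). PLXNC1, the receptor of SEMA7A, went from 3 to 169 counts with vehicle, a ratio of 29.2 (95% counting interval 9.82 to 143, edgeR adjusted p = 1.19e-06). With T3 it went from 3 to 289 counts, a ratio of 49.3 (16.7 to 241, edgeR adjusted p = 7.98e-08). PLXNC1 overlaps CEP83, and NRP1 and NRP2 each overlap an antisense gene, and without the strand setting of the counting such reads cannot be told apart. The same limit holds in every comparison for other members that overlap a gene on the opposite strand. Among them are SEMA4G with MRPL43, EPHB4 with SLC12A9, EPHB1 with KY, PLXNA3 with LAGE3, EPHA5 with EPHA5-AS1 and SEMA3F with SEMA3F-AS1. PLXNB3 overlaps SRPK3 on the same strand.

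The other plexins split. PLXNB1, the receptor of SEMA4D, was at 56.5 to 77.8 CPM at 6 h and at 7.86 to 15.8 CPM at 24 h, and fell by 2.42 with vehicle (edgeR adjusted p = 2.74e-08) and by 2.697 with T3 (edgeR adjusted p = 4.56e-09) on the log2 scale. PLXNA1 (-1.68 with vehicle and -1.58 with T3), PLXNA2 (-1.73 and -1.57) and PLXND1 (-1.47 and -1.996) were lower too. PLXNB2 differed by -1.24 with vehicle and -1.15 with T3, but with GC and length offsets it was at -0.33 with vehicle and did not pass with T3 (edgeR adjusted p = 0.989). PLXNA3 went the other way and rose by 1.38 (edgeR adjusted p = 0.000103) and 2.02 (edgeR adjusted p = 2.13e-06). The plexin sum was 246 ± 22.3 TPM with vehicle and 175 ± 2.697 TPM with T3 at 6 h, and 133 ± 18.9 and 118 ± 3.85 TPM at 24 h (SD, n = 2). PLXNB3 stayed at or below 4.34 CPM and did not pass with either treatment (0.95 and 1.43), but passed as higher with both with the offsets (2.04 and 2.77).

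Of the 6 tested secreted semaphorins, 5 fell with vehicle (32.6% of all genes did) and 3 with T3 (35.2%), and SEMA3C rose with both. SEMA3B was at 76.4 to 137 CPM at 6 h and at 10.1 to 16.5 CPM at 24 h, lower by -3.16 with vehicle (SE 0.22, edgeR adjusted p = 1.79e-09) and -2.64 with T3 (SE 0.21, edgeR adjusted p = 7.15e-09). SEMA3F, which lies close to it on chromosome 3, was at 34.4 to 56.7 CPM and then 6.13 to 10.6 CPM, lower by -2.44 and -2.28. Both were lower by smaller amounts with GC and length offsets, SEMA3B at -1.98 and -1.17 and SEMA3F at -1.54 and -1.14. SEMA3G had 34 and 24 counts with vehicle and 29 and 34 with T3 at 6 h and 0 in all 4 libraries at 24 h. This was at least 37.3-fold lower with vehicle (edgeR adjusted p = 3.31e-06) and at least 41.0-fold lower with T3 (edgeR adjusted p = 1.59e-06), against a floor of 3 counts over the group. SEMA3A, the archetypal repellent, fell by 2.36 with vehicle, while its difference with T3 was -0.90 and did not pass. It passed with T3 too with GC and length offsets (-1.92, edgeR adjusted p = 0.0114). SEMA3D passed with vehicle only (-2.06, edgeR adjusted p = 0.0414) and in 5 of 14 alternative fits. SEMA3C rose by 0.83 with vehicle (edgeR adjusted p = 6.53e-05) and by 0.57 with T3 (edgeR adjusted p = 0.000997), from 80.8 to 133 CPM at 6 h to 134 to 216 CPM at 24 h. With GC and length offsets SEMA3C did not pass (0.27 with vehicle, 0.01 with T3). The class 3 sum was 158 ± 11.3 and 133 ± 0.34 TPM at 6 h and 113 ± 12.3 and 164 ± 13.4 TPM at 24 h (SD, n = 2). SEMA3B was the largest part of it with vehicle at 6 h, and SEMA3C in the other 3 groups.

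Membrane semaphorins moved in both directions. SEMA4D, a ligand of plexin B1 also known as CD100, was at 13.0 to 23.3 CPM at 6 h and 39.3 to 48.1 CPM at 24 h, and rose by 0.94 (edgeR adjusted p = 0.000779) and 1.36 (edgeR adjusted p = 1.71e-05). SEMA4C rose by 0.94 and 0.78, and SEMA4F (0.89) and SEMA6C (1.33) passed with T3 but not with vehicle (0.58 and 0.68). The SEMA4F call held in 6 of 15 other fits. Both genes passed with vehicle too once GC and length offsets were used (1.01 and 1.71). SEMA6D, a ligand of plexin A1, was at 2.46 to 7.24 CPM at 6 h and had 0 counts in all libraries of 24 h, at least 16.1-fold lower with vehicle and at least 34.5-fold lower with T3. SEMA6B differed by -0.97 and -1.38, but by 0.50 and 0.42 with GC and length offsets, where it did not pass. SEMA4B, SEMA4G, SEMA5A and SEMA7A did not pass in either time comparison. With the offsets SEMA7A passed as higher with both treatments (1.61 and 1.78), and SEMA4B (0.70, against -0.27 without them) and SEMA4G passed as higher with T3.

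EFNA1 fell while EPHA2, the dominant EphA receptor, rose. EFNA1 was at 152, 131, 174 and 170.2 CPM at 6 h and at 28.2, 21.1, 23.1 and 17.3 CPM at 24 h. It fell by 2.54 with vehicle (SE 0.18, edgeR adjusted p = 1.98e-09) and by 3.10 with T3 (SE 0.17, edgeR adjusted p = 7.87e-11), the largest fall among the 7 tested ephrins. EFNA4 (-1.83 and -2.43) and EFNA3 (-1.52 and -2.27) were lower too, but neither passed with GC and length offsets, and AL691442.1, annotated on the same strand, overlaps both, so their counts are uncertain. The EFNA3 call with vehicle held in 6 of 15 other fits and was also lost with DESeq2. EFNA5 did not pass (-0.31 and -0.26), but was lower with both treatments with the offsets (-0.80 and -0.75). EFNA1 remained lower with them (-1.83 and -2.16). EPHA2 rose by 0.42 (edgeR adjusted p = 0.0150) and 0.46 (edgeR adjusted p = 0.00895). With GC and length offsets these values were 1.33 and 1.60. The EPHA2 call held in 13 of 15 other fits with vehicle and in 14 of 15 with T3, and was lost only in fits that left a library out. EPHA5 had 2 counts with vehicle at 6 h and 25 at 24 h, a ratio of 6.48 (95% counting interval 1.62 to 56.4, edgeR adjusted p = 0.0263), and rose by 2.81 with T3. With the offsets EPHA5 passed with T3 only. Its call with vehicle held in 8 of 14 other fits and was also lost with DESeq2. The other 7 EphA genes were not tested, and among them EPHA10 went from 13 to 5 counts with vehicle (5.02-fold lower, 95% counting interval 1.68 to 18.0) and EPHA1 from 9 to 5 (3.47-fold lower, 1.05 to 13.2). In TPM the ephrin-A sum was 250.4 ± 24.0 and 258 ± 8.77 at 6 h and 81.5 ± 14.4 and 77.4 ± 9.39 at 24 h (SD, n = 2, vehicle then T3). The EphA sum was 59.9 ± 3.47 and 39.6 ± 1.91 TPM at 6 h and 99.8 ± 23.7 and 84.1 ± 4.63 TPM at 24 h. The ephrin-A sum was thus above the EphA sum in all 4 libraries of 6 h and below it in all 4 libraries of 24 h. The gap at 24 h was small in T3 replicate 1 (84.1 against 87.4 TPM), and across libraries the ranges of the 2 sums overlapped.

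On the B side, EFNB1 (0.11 and 0.01) and EFNB2 did not pass in either time comparison, and EFNB3 (0.85 with vehicle, not past the threshold) passed with T3 (3.22, SE 0.61, edgeR adjusted p = 0.000154), from 0.724 and 1.01 CPM to 12.6 and 4.86 CPM. EFNB1 (1.01 and 1.16) and EFNB3 (1.62 and 4.21) passed with both treatments with GC and length offsets. EPHB2 was at 13.8 to 20.2 CPM at 6 h and 24.4 to 56.1 CPM at 24 h, and rose by 1.43 (edgeR adjusted p = 1.56e-05) and 0.99 (edgeR adjusted p = 0.000590). EPHB1 had 0 counts with T3 at 6 h and 37 at 24 h, at least 6.32-fold higher (edgeR adjusted p = 0.00137), and did not pass with vehicle (2 and 13 counts). EPHB4, the receptor of ephrin-B2, differed by -0.60 and -0.43, but by 0.21 and 0.59 with GC and length offsets, and the last value passed in that direction (edgeR adjusted p = 0.00310). The EphB sum was 47.1 ± 7.80 and 31.7 ± 4.27 TPM at 6 h and 55.5 ± 12.3 and 46.3 ± 2.44 TPM at 24 h (SD, n = 2).

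**Figure D3:**
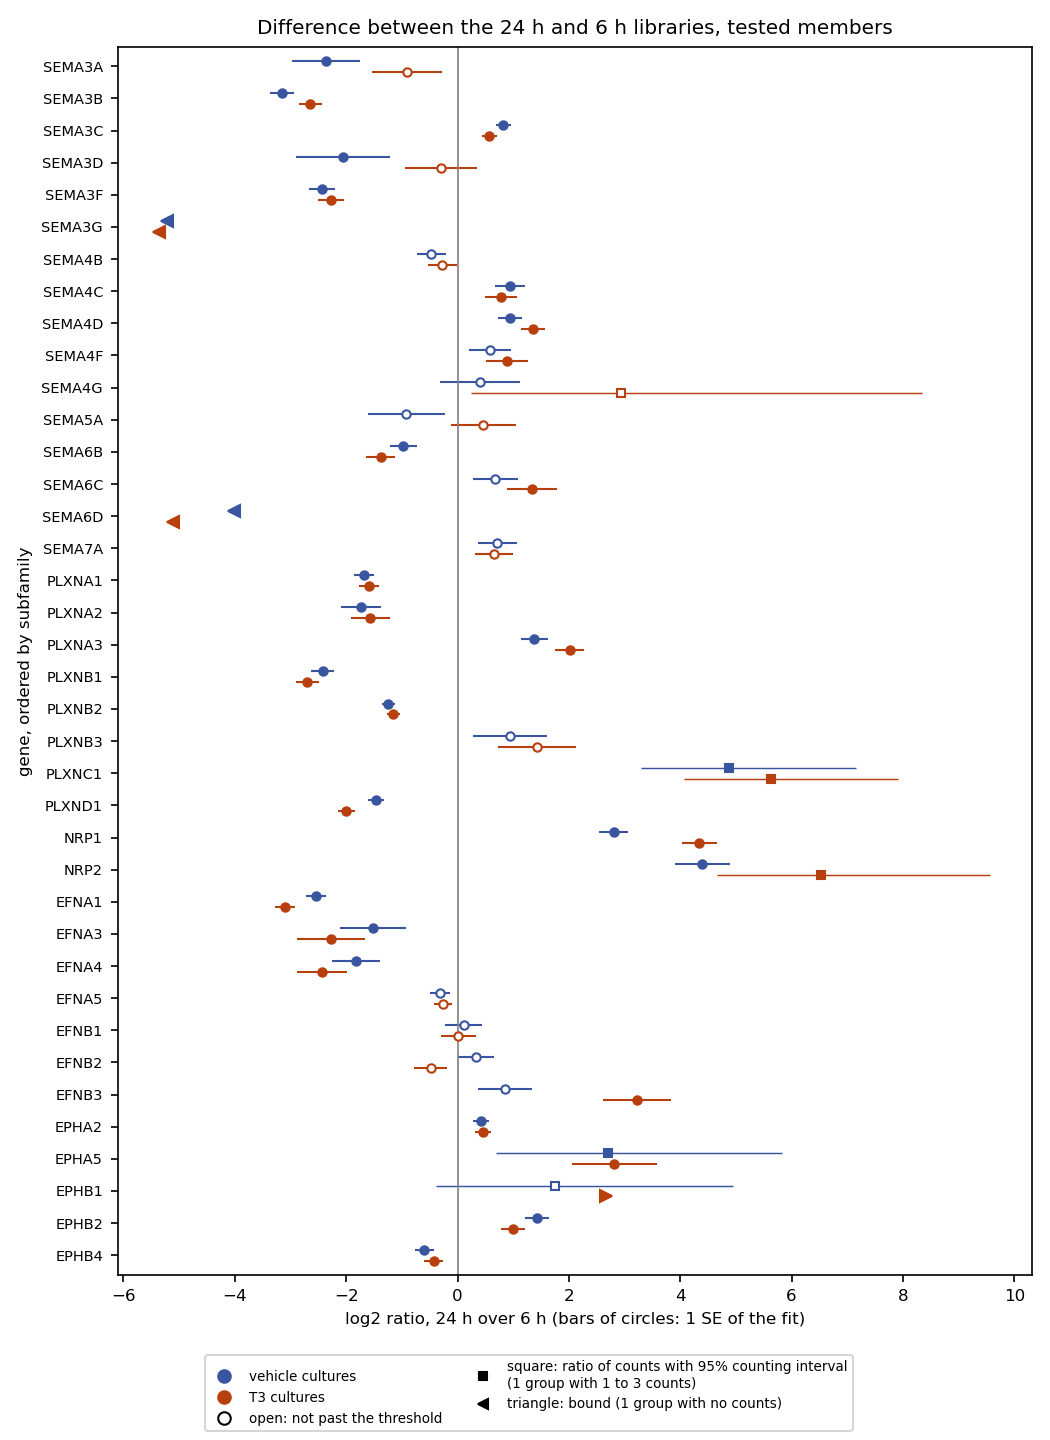
Difference between 24 h and 6 h (horizontal, log2 ratio) of the 38 tested members (vertical) with vehicle (blue) and T3 (orange). Circles are fitted values ± SE, squares are count ratios with 95% counting intervals, triangles are bounds for groups with 0 counts, and open symbols did not pass. NRP1, NRP2 and PLXNC1 lie far to the right, and SEMA3G, SEMA6D, SEMA3B and EFNA1 far to the left with both treatments.

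**Figure D4:**
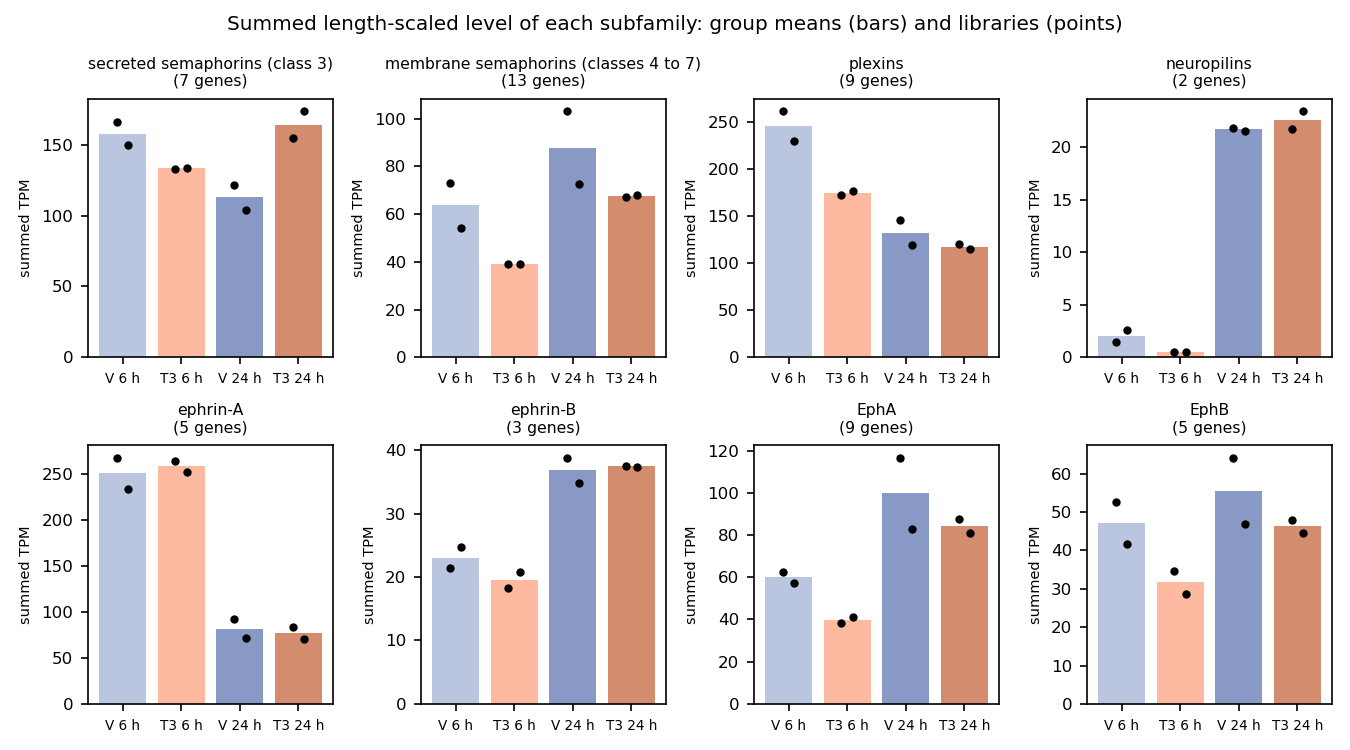
Summed TPM (vertical) of each subfamily in the 4 groups, with bars at the group mean and a point per library. The ephrin-A bars are near 250 TPM at 6 h and near 80 TPM at 24 h, and the neuropilin bars are under 3 TPM at 6 h and over 20 TPM at 24 h.

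Of 90 listed ligand and receptor pairs, 56 had both genes at 1 CPM or more in at least 1 group and 35 had both tested. The 45 ephrin-A and 18 ephrin-B pairs crossed every ephrin of a class with every receptor listed for it. A listed pair is therefore not evidence that its 2 proteins bind. Pairs share members and are not independent. With vehicle 2 pairs were higher on both sides at 24 h, 1 was lower on both, 12 had a lower ligand with a higher receptor and 4 the reverse, and in 16 a partner did not pass. With T3 these counts were 4, 1, 10, 6 and 14. SEMA3C with NRP1 and with NRP2 were the pairs higher on both sides with either treatment, and SEMA6D with PLXNA1 was the pair lower on both. SEMA3B with either neuropilin, and SEMA3F and SEMA3G with NRP2, had a lower ligand and a higher receptor with both treatments. SEMA4D with PLXNB1 and PLXNB2, SEMA4C with PLXNB2 and SEMA3C with PLXND1 had a higher ligand and a lower receptor. For SEMA7A with PLXNC1 only the receptor passed, although both were higher with GC and length offsets. All 6 pairs of EFNA1, EFNA3 and EFNA4 with EPHA2 and EPHA5 had a lower ligand and a higher receptor with both treatments, where EFNA1 with EPHA2 is the one made of abundant genes. With the offsets the EFNA3, EFNA4 and SEMA3C calls were lost with both treatments, that of PLXNB2 with T3 and that of EPHA5 with vehicle. The pairs of SEMA3C with NRP1, NRP2 and PLXND1 therefore did not keep both calls under the offsets. Among the 9 tested ephrin-B pairs, 0 had both partners past the threshold with vehicle, and EFNB3 rose together with EPHB1 and EPHB2 with T3.

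Co-receptors, adaptors and effectors were taken from 2 lists. Of 32 tested partners of semaphorins and plexins, 0 were higher and 4 lower with T3 at 6 h (3.78% and 3.86% of all genes). The 4 were DPYSL3 (-1.57, edgeR adjusted p = 0.0159), a collapsin response mediator, the actin oxidoreductase MICAL2 (-0.83, edgeR adjusted p = 0.0106), VEGFA, a ligand of neuropilins (-0.77), and FLT4, a VEGF receptor, which had 1 count in the T3 libraries. At 24 h 0 were higher and 6 lower in the libraries labelled T3 (5.58% and 7.75% of all genes), led by RRAS (-1.56), MICAL1 (-1.15), L1CAM (-0.82, edgeR adjusted p = 0.000843) and LIMK1 (-0.69), none of which passed with GC and length offsets. Between the times 13 were higher and 8 lower with vehicle (31.9% and 32.6% of all genes) and 15 and 11 with T3 (35.1% and 35.2%). DPYSL3 (2.83 and 4.45) and the adhesion molecule NRCAM (2.80 and 3.03) were among the higher in both. MICAL2 was higher (2.37) and the kinase FYN, which is in both lists, lower (-2.30) with vehicle. DPYSL3 (1.62, edgeR adjusted p = 0.0481) and L1CAM (-0.66, edgeR adjusted p = 0.0496) differed in their T3 difference between the times.

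Of 33 tested partners of Eph receptors and ephrins, 1 was higher and 3 lower with T3 at 6 h, beside the same shares of all genes. The kinase SRC (-1.08, edgeR adjusted p = 0.00495), the lipid phosphatase INPPL1 (-0.80, edgeR adjusted p = 0.00336) and afadin (MLLT4, -0.67) were lower and syntenin (SDCBP, 0.49) was higher. At 24 h 1 was higher and 4 were lower in the libraries labelled T3 (5.58% and 7.75% of all genes). The higher one was the ephrin-cleaving protease ADAM10 (0.45), and PICK1 (-0.86), SRC (-0.63) and VAV2 (-0.48) were among the lower. With GC and length offsets neither ADAM10 nor these 3 passed. Between the times 15 were higher and 12 lower with vehicle (31.9% and 32.6% of all genes) and 13 and 10 with T3 (35.1% and 35.2%). The Rac exchange factors moved apart, with VAV3 at -4.53 and -5.20 and TIAM1 at 3.83 and 4.79. CNKSR1, an ephrin-B1 adaptor, was at -3.84 and -4.03, and the phosphatase PTPN13, which binds B ephrins, at 2.66 and 3.61.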

How the data were processed

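RNA was total RNA depleted of ribosomal RNA, per the labels. Per the submitters' processing notes, CASAVA 1.7, STAR 2.7, HTSeq and DESeq2 were used with the hg38 build. Annotation release, strand setting and trimming: not given in the sources used here. The deposited files hold raw counts per gene, 1 table per library. The 5 summary rows that name no gene held 75.6% to 87.1% of each table's reads and were left out of library sizes and tests.

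Genes were filtered (filterByExpr), scaled (TMM) and tested with edgeR 4.0.16 in R 4.3.3 (quasi-likelihood, robust) on all 8 libraries with 1 coefficient per group, which leaves 4 residual degrees of freedom, and p-values were adjusted over 14611 genes. TPM used the union exon length of GENCODE 29. Groups with 0 to 3 counts got count ratios with exact binomial 95% intervals, or bounds against 3 counts. The settings tried were DESeq2 1.42.0, RLE scaling, no filter, the replicate number as a block, lowess offsets for GC content and length (span 0.3, 12577 genes), only the libraries compared, and each library left out. The fit was tested on simulated data.

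The members and lists were chosen with earlier results of these data known. All members past the threshold with T3, the 10 largest rises and falls over time, up to 4 genes per partner list and comparison, and the 3 most abundant genes per class are named. Promoter windows run from 250 bases before to 50 after RefSeq starts.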

Additional observations from a re-analysis of the deposited data

How the results depend on the processing

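Members near the floor of 3 counts a library could not be compared at this depth. The count of members past the threshold between T3 and vehicle at 6 h (6) was 2 with GC and length offsets, 2 with the replicate block and those offsets, 15 with only the libraries compared, and 0 to 8 when 1 library was left out. At 24 h as labelled (7) it was 0 with the offsets, 0 with the block and the offsets, 1 with only the libraries compared, 4 with DESeq2, and 3 to 8 with a library left out. It was 3 without T3 replicate 1 of 6 h and without T3 replicate 2 of 24 h, and 4 without T3 replicate 2 of 6 h or either vehicle library of 24 h. EPHA2 (0.076 with the offsets, and 0.076 with the block and the offsets) and PLXNB2 (0.15 and 0.15) changed sign at 24 h. The cause was not tested. The count for the difference between the T3 responses (0) was 0 to 1 with a library left out.

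The time counts stayed within 1.5 times in every setting run (21 to 29 against 26 with vehicle, 23 to 31 against 28 with T3), and 17 of 26 and 17 of 28 members passed in every setting that tested them (15, or 14 for SEMA6D with vehicle and EPHB1 with T3). The replicate numbers are not stated to pair libraries, and deviations of same-numbered libraries correlated at -0.0437 to 0.0972. With the replicate block the counts were 6 at 6 h, 8 at 24 h, 25 and 28 over time and 0 for the difference, and with the block within each time 5, 5 and 0.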

Other observations

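The members on chromosome 3 were looked at after their values were seen. Of 11 members there 7 were tested, and 6 of the 7 were lower at 24 h with vehicle and 0 were higher, where 38.1% of all tested genes of the chromosome were lower. With T3 the same 6 genes (SEMA3B, SEMA3F, SEMA3G, PLXNA1, PLXNB1 and PLXND1) were lower and EPHB1 was higher, where 40.8% of the chromosome's tested genes were lower. SEMA3F (chr3:50155045-50189075) and SEMA3B (chr3:50267558-50277546) lie close together, SEMA3G lies at chr3:52433053-52445085, and EFNA4, EFNA3 and EFNA1 lie close together on chromosome 1 (GRCh38, GENCODE 29). All 3 members tested on chromosome 2 were higher at 24 h with T3, and 2 of them with vehicle, where 51.9% and 48.4% of all tested genes of that chromosome were higher.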
